A study of Homo sapiens with 8 samples.

Results

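GBP1 to GBP5 (guanylate binding proteins) are 5 of the 57722 genes listed in both deposited read count tables. They were selected by gene symbol in the Molm13 table, and the same Ensembl identifiers were then read from the THP1 table, which gives no symbols. The study knocked down PRMT9, an arginine methyltransferase, in the human acute myeloid leukaemia (AML) lines Molm13 and THP1 and profiled polyadenylated RNA to see which transcripts moved when PRMT9 was lost. The control groups expressed a control short hairpin RNA (shCtrl, genotype WT in the labels), and the other groups expressed a hairpin against PRMT9 (shPRMT9, genotype PRMT9 knockdown). All 4 groups, controls included, received doxycycline (Dox), the drug that switches the hairpins on. Each group held 2 libraries, 8 in all, and the labels do not say whether libraries 1 and 2 were separate cultures, separate hairpins or repeat preparations. Sample titles for THP1 contain the letters OCI in their library names, whereas all remaining labels say THP1.

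Library totals ranged from 18720950 to 27356870 counts. Counts of PRMT9 itself were 332 and 289 in Molm13 shCtrl and 41 and 56 in Molm13 shPRMT9, against 317 and 352 and then 60 and 68 in THP1, so the targeted transcript fell by 2.68 and 2.29 on the log2 scale. All 8 myeloid marker genes examined (CD33, CD14, LYZ, MPO, CSF1R, ITGAM, FCGR1A and SPI1) were detected in every group, whereas the 3 T cell and 3 erythroid markers each summed to under 0.3 CPM (counts scaled to library size) in every library. Of the B cell markers, MS4A1 lay at or near 0, but PAX5 had 741 to 866 counts in the Molm13 libraries.

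Guanylate binding proteins are large GTPases of the dynamin superfamily that are made in response to interferons, above all IFN-γ, and defend the interior of the cell. They coat intracellular bacteria and the vacuoles that hold them, restrict several viruses and help to start inflammasome signalling through caspase-4. GBP1, GBP2 and GBP5 end in a motif that receives a prenyl lipid anchor, whereas GBP3 and GBP4 lack it. In myeloid cells they are widely used as markers of interferon signalling.

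The 5 genes lie in a cluster on the minus strand of chromosome 1, within 266.1 kb of hg38. GBP3 (ENSG00000117226) spans chr1:89006666-89022894, GBP1 (ENSG00000117228) spans chr1:89052319-89065360 and GBP2 (ENSG00000162645) spans chr1:89106132-89150456. They are followed by GBP4 (ENSG00000162654) at chr1:89181148-89198932 and GBP5 (ENSG00000154451) at chr1:89258950-89272804. Reads were counted over exons, and a read that fits more than one copy of a family member is a possible source of misassignment. Of all 50-base windows in a member's coding transcripts (GENCODE release 29), 13.3% in GBP1, 3.89% in GBP3, 3.09% in GBP2, 0.313% in GBP4 and 0 in GBP5 were also present, base for base, in another GBP locus. GBP1 shared most with the pseudogene GBP1P1 (10.9% of its windows), so by this measure its counts are the least certain of the 5. The share depends on the window length. With windows of 75 and 100 bases it was 5.24% and 1.87% for GBP1, and 0.988% and 0 for GBP3. GBP2 and its neighbour GBP7 overlap by 621 exonic bases. GBP7 held at most 1 count in any Molm13 library and 14 in any THP1 library. These counts do not show how reads on the shared bases were assigned, or whether GBP2 lost reads there.

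Interferons act on such genes through a pair of short DNA elements, and the promoters are shown because they carry these letters. The interferon-stimulated response element (ISRE) was searched as GAAA, any 2 bases and GAAA, and the gamma-activated site (GAS) as TTCNNNGAA, both on either strand, in the window from 250 bases before to 50 bases after each RefSeq gene start (build GRCh38.p14). RefSeq promoter windows were used for GBP1 (chr1:89065159-89065458), GBP3 (chr1:89022817-89023116) and GBP4 (chr1:89198893-89199192), all on the minus strand and printed 5′ to 3′ in the direction of transcription. No window was available for GBP2 or GBP5, so their promoters were not searched. Capitals mark the matches, and an ISRE on the opposite strand reads TTTC, any 2 bases and TTTC. The RefSeq starts of GBP1 (89065208) and GBP3 (89022866) lie inside the genes as the count table bounds them, as do the matches of both. Positions given below count from the RefSeq starts.
GBP1: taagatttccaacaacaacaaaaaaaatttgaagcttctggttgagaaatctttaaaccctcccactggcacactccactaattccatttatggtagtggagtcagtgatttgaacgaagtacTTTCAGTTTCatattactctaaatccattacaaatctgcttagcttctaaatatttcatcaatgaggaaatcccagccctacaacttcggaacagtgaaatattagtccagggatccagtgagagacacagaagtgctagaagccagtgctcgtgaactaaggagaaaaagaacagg
GBP3: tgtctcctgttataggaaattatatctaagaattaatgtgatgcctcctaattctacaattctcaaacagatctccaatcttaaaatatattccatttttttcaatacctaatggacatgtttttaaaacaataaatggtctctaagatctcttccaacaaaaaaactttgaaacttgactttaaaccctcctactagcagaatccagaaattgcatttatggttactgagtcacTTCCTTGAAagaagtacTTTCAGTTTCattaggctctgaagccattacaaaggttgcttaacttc
GBP4: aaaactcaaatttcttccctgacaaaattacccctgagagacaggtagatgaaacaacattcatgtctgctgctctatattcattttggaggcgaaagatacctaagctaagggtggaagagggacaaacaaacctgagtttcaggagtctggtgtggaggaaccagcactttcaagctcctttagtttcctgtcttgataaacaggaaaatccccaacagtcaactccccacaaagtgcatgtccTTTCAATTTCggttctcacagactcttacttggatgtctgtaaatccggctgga
All 3 windows held an ISRE match, which 3.57% of 35116 promoter windows of the same length held. The match began 127 bases before the start in GBP1 and 4 bases before it in GBP4. In GBP3 it began 2 bases after the start, and GBP3 also held a GAS match, not overlapping the ISRE, 15 bases before the start, as did 7.66% of all windows. GBP1 and GBP3 shared the same ISRE letters. Elements that depart from the searched letters were not looked for, so a window without an ISRE or GAS match may still hold such an element. A match of letters says nothing about binding in these cells.

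shPRMT9 libraries of both lines held more reads of all 5 genes than their controls. In THP1, all 5 genes rose, from 2.39-fold for GBP3 to 14.8-fold for GBP1. In Molm13, GBP2 and GBP3 rose 3.48-fold and 2.65-fold, GBP4 and GBP5 passed the test at levels below the expression minimum, and GBP1 had too few counts for the test. A gene was called when edgeR's quasi-likelihood test gave a false discovery rate (FDR, Benjamini-Hochberg adjusted p) below 0.05, the fold exceeded 1.5 and 1 library or more had over 1 RPKM (reads per kilobase of exon, scaled to library size). By these limits 2 of the 4 tested genes were called higher in Molm13, where 11.4% of 16446 tested genes were, and 5 of 5 in THP1, where 3.83% of 16294 were. By FDR alone the count was 4 of 4 in Molm13 against 33.4% of tested genes, and 5 of 5 in THP1 against 19%. The Molm13 counts are a description only, since GBP4 passed the count filter through the group where it was high and GBP1 was removed by it. Both shPRMT9 libraries lay above both shCtrl libraries for all 5 genes in each line, as they did for 41.2% of tested genes in Molm13 and 33% in THP1. In bulk RNA, more cells expressing a gene and more of its RNA per cell cannot be told apart. GBP2 and GBP3 belong to a signature that the study drew from these same libraries, so their direction is not independent evidence.

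**Figure D1:**
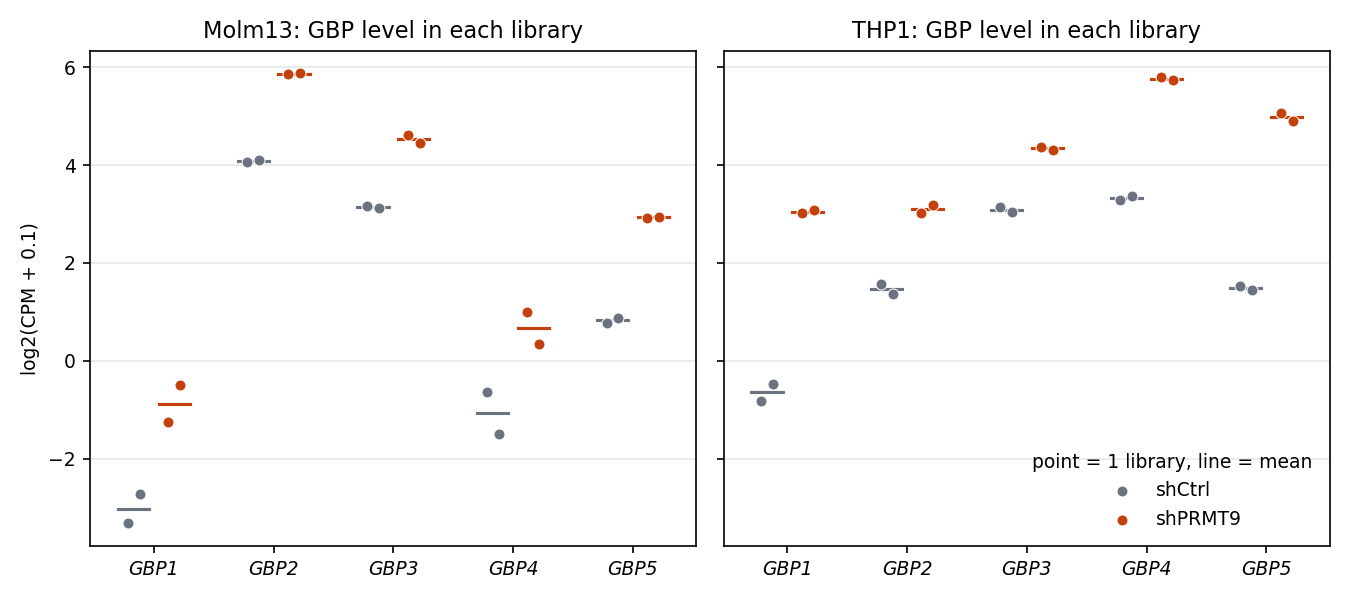
Level of each gene as log2 of CPM plus 0.1, in Molm13 (left) and THP1 (right); each point is 1 library, grey for shCtrl and orange for shPRMT9, and each line is the group mean. Every orange pair sits above its grey pair. GBP1 has the lowest mean of the members in both THP1 groups, and its counts there go from 12 and 17 to 199 and 205.

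GBP1, the member known to bind the lipopolysaccharide of cytosolic bacteria first and to recruit the others, was close to silent in Molm13. Its counts there were 0 and 1 in shCtrl and 6 and 13 in shPRMT9. The groups did not overlap, but only 1 shPRMT9 library and no shCtrl library passed the count filter of about 0.499 CPM, so the gene was not tested. The ratio of 19 summed counts to 1 was 18.9 after scaling for depth, with a 95% interval of 3.01 to 786 that covers counting error only. In THP1, GBP1 had 12 and 17 counts without PRMT9 knockdown and 199 and 205 with it, or 0.468 and 0.616 CPM against 7.96 and 8.30 CPM. The rise was 3.88 on the log2 scale (SE 0.208, adjusted p = 7.3e-15), which placed GBP1 17th of 16294 tested genes by fold.

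GBP2, a prenylated member that joins GBP1 on bacterial surfaces, was the most abundant member in Molm13. Its counts there were 338 and 336 for shCtrl against 1095 and 1249 for shPRMT9, that is 16.6 and 17.2 CPM against 58.0 and 58.7 CPM. The gap was far wider than the spread between libraries of a group, with a log2 fold change of 1.80 (SE 0.0625, adjusted p = 1.5e-27). In THP1 the gene was scarcer, with 73 and 68 counts in shCtrl and 200 and 221 in shPRMT9. Its log2 fold change there was 1.67 (SE 0.147, adjusted p = 2.8e-10), with 2.65 ± 0.270 CPM in shCtrl and 8.47 ± 0.677 CPM in shPRMT9 (SD, n = 2).

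GBP5 is a prenylated member of the Golgi that lowers the infectivity of HIV particles. In Molm13 it had 33 and 34 counts in shCtrl and 141 and 161 in shPRMT9, or 1.68 ± 0.0837 and 7.51 ± 0.0690 CPM (SD, n = 2). The log2 fold change was 2.17 (SE 0.177, adjusted p = 1.3e-14). GBP5 was not called in Molm13 because its highest level, 0.929 RPKM, fell just short of the minimum of 1. That level depends on gene length. The summed exon length of GBP5 is 8143 bases, whereas its 1 coding transcript in the basic set of GENCODE release 29 is 2011 bases. With the latter GBP5 passed. All coding transcripts of GBP5 in the release hold 5129 distinct 50-base windows, more than 2011 bases can hold. Levels of GBP5 by the basic set may therefore be too high. In THP1, GBP5 had 71 and 72 counts in shCtrl and 833 and 740 in shPRMT9, an 11.7-fold rise from 2.69 ± 0.113 to 31.6 ± 2.35 CPM (log2 fold change 3.55, SE 0.108, adjusted p = 1.4e-20).

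GBP3, a member without a lipid anchor that is drawn to bacteria after GBP1, had 8.70 ± 0.174 CPM in Molm13 shCtrl and 8.42 ± 0.490 CPM in THP1 shCtrl (SD, n = 2). In Molm13 it had 180 and 168 counts in shCtrl and 461 in each shPRMT9 library, and the log2 fold change was 1.41 (SE 0.0916, adjusted p = 8.0e-18). In THP1 the counts were 225 and 223 against 516 and 489, with a log2 fold change of 1.26 (SE 0.0904, adjusted p = 4.5e-12). Its fold was the smallest of the tested members in each line.

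GBP4, which also lacks the anchor and takes part in the recruitment of caspase-4, was scarce in Molm13 and abundant in THP1. In Molm13 its counts were 11 and 5 for shCtrl against 36 and 25 for shPRMT9, and its log2 fold change of 1.92 had the largest error of the tested members (SE 0.397, adjusted p = 4.3e-05). It entered the test through the shPRMT9 libraries, since only 1 shCtrl library passed the count filter, and its level never exceeded 0.314 RPKM in this line. The estimate was 2.54 without shCtrl library 1, 1.496 without shCtrl library 2 and 1.55 without shPRMT9 library 1. In THP1, GBP4 had 248 and 284 counts in shCtrl and 1387 and 1319 in shPRMT9, a 5.43-fold rise (log2 fold change 2.44, SE 0.0708, adjusted p = 4.8e-21).

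**Figure D2:**
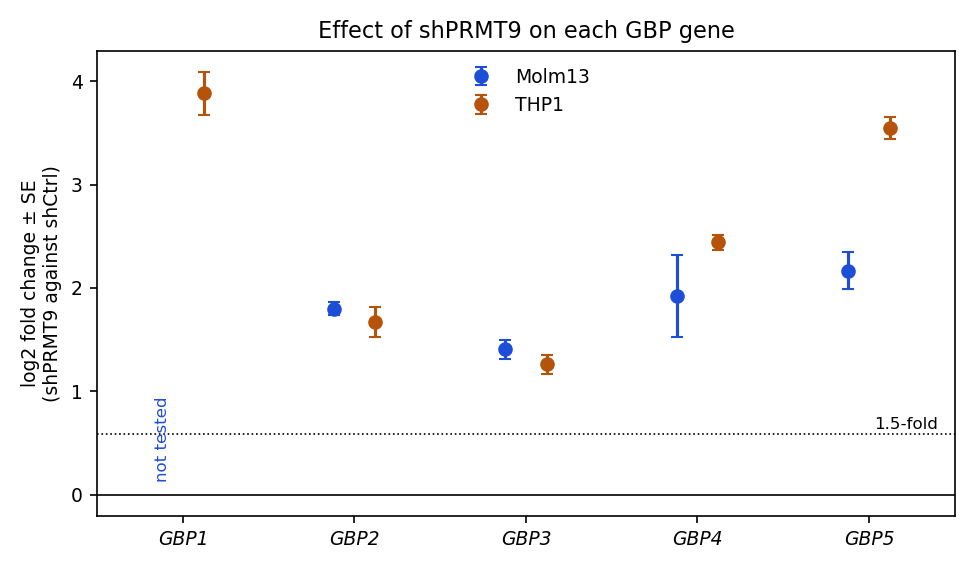
Log2 fold change of shPRMT9 against shCtrl for each gene, with bars of 1 SE from edgeR's quasi-likelihood test, in Molm13 (blue) and THP1 (orange); the dotted line is the 1.5-fold limit, and GBP1 was not tested in Molm13. GBP2 and GBP3 lie close together in both lines (1.80 and 1.67, 1.41 and 1.26), whereas GBP5 lies at 2.17 in Molm13 and 3.55 in THP1.

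The response to shPRMT9 was compared between the lines in 1 fit of all 8 libraries, in which 42.2% of 19288 tested genes passed an FDR of 0.05 and 22.8% passed with a larger effect in THP1. Of the 5 members, GBP5 passed, with an effect larger in THP1 by 1.40 on the log2 scale (SE 0.250, adjusted p = 1.4e-06, 95% interval 0.90 to 1.89). The effects on GBP2 and GBP3 differed by −0.11 (95% interval −0.44 to 0.21, adjusted p = 0.65) and −0.13 (95% interval −0.40 to 0.14, adjusted p = 0.48). For GBP4 the difference was 0.54 (95% interval −0.33 to 1.41, adjusted p = 0.37) and became −0.13 without Molm13 shCtrl library 1, so its sign rests on that library. For GBP1 the difference was −0.08 (adjusted p = 0.94), with no interval given because Molm13 shCtrl held 1 count, and it was −2.63 without Molm13 shCtrl library 2, which held the only count of that group, and 0.78 without Molm13 shCtrl library 1. Differences inside these intervals could not be told from 0 with 2 libraries per group.

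The control libraries of both lines held reads of all 5 members, at different levels for 4 of them. GBP2 was 6.36-fold lower in THP1 shCtrl than in Molm13 shCtrl (log2 difference −2.67, SE 0.122, adjusted p = 1.0e-36). GBP4 was 24.6-fold higher in THP1 shCtrl (log2 difference 4.62, SE 0.223, adjusted p = 6.2e-35), a log2 difference that was 5.26 without Molm13 shCtrl library 1 and 4.21 without library 2. GBP5 was higher by 0.68 (SE 0.212, adjusted p = 0.0026). GBP1 had 29 counts in the 2 THP1 shCtrl libraries and 1 in the 2 Molm13 shCtrl libraries, a ratio of 21.8 with a counting interval of 3.61 to 889. Its fitted log2 difference was 4.17, against 3.29 without Molm13 shCtrl library 1 and 6.70 without library 2. GBP3 differed by −0.05 (SE 0.112, 95% interval −0.27 to 0.17, adjusted p = 0.69). By FDR below 0.05 and a fold above 1.5, 4 of the 5 members differed between the control groups, as did 59.5% of all tested genes. GBP1, one of these 4, passed the count filter of that fit only through libraries in which it was high. The lines were counted in separate tables, so the line and its handling cannot be told apart.

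Per kilobase of summed exon, the order of the members in Molm13 was the same with and without PRMT9 knockdown. GBP2 stood at 2.69 RPKM in shCtrl and 9.29 in shPRMT9, followed by GBP3 at 2.02 and 5.36, GBP5 at 0.206 and 0.923, GBP4 at 0.0648 and 0.251 and GBP1 at 0.00511 and 0.0930. In THP1 shCtrl the order was GBP3 (1.96), GBP4 (1.63), GBP2 (0.423), GBP5 (0.330) and GBP1 (0.108 RPKM). In THP1 shPRMT9 it was GBP4 (8.88), GBP3 (4.71), GBP5 (3.89), GBP1 (1.63) and GBP2 (1.35 RPKM). No neighbours in these orders overlapped between libraries of a group. By the longest coding transcript of the basic set instead, GBP5 led THP1 shPRMT9 with 15.7 RPKM ahead of GBP4 (8.88) and GBP3 (6.59). GBP2 still led Molm13 shPRMT9 with 26.3 RPKM. The order of GBP5 among the members in THP1 therefore depends on which transcript the cells made, which gene counts do not show.

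The summed level of the 5 members went from 4.99 ± 0.0104 to 15.9 ± 0.409 RPKM in Molm13 and from 4.45 ± 0.0785 to 20.5 ± 0.499 RPKM in THP1 (SD, n = 2). The makeup of the sum differed between the lines. GBP2 made up 53.9% of the sum in Molm13 shCtrl and 58.4% in Molm13 shPRMT9, and GBP3 made up 40.6% and 33.6%. In THP1, the share of GBP3 went from 44.0% to 23.0%, that of GBP5 from 7.42% to 18.98%, that of GBP1 from 2.44% to 7.97%, that of GBP4 from 36.6% to 43.4% and that of GBP2 from 9.496% to 6.61%. These shares rest on the summed exon length and were not tested. By the longest coding transcript of the basic set, GBP5 instead of GBP4 was the largest part in THP1 shPRMT9 (15.7 against 8.88 RPKM).

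**Figure D3:**
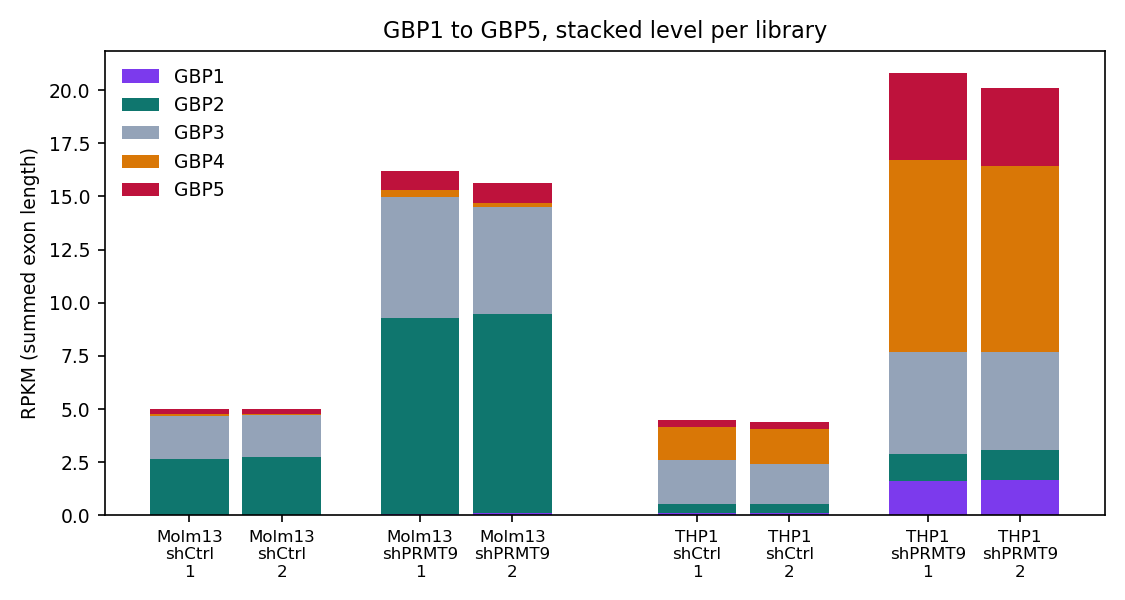
Stacked level of the 5 members in each of the 8 libraries, in RPKM by summed exon length, with 1 colour per gene. Molm13 bars are mostly GBP2 and GBP3 and reach 15.9 RPKM on average with shPRMT9, whereas THP1 bars are led by GBP3 and GBP4 and gain GBP5 and GBP1 with shPRMT9, reaching 20.5 RPKM on average.

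Of the other GBP loci, GBP6 had 0, 1, 1 and 0 counts in the Molm13 libraries and 4, 3, 6 and 6 in THP1. GBP7 had 5 and 6 counts in THP1 shCtrl and 14 and 10 in shPRMT9 (log2 fold change 1.20, edgeR's quasi-likelihood test, adjusted p = 0.083). It passed the THP1 count filter of about 0.392 CPM only through the shPRMT9 libraries, so these values are a description only. The pseudogene GBP1P1 had no count in either THP1 shCtrl library and 18 in each THP1 shPRMT9 library. Since GBP1P1 shares sequence with GBP1, reads of these loci could be misassigned or left uncounted, and the part of this in the counts of GBP1 was not tested.

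Upstream of the GBP genes, the ligands had few counts. IFNG, which encodes IFN-γ, had at most 2 counts in any library, and IFNA1 had none. IFNL1, which encodes a type III interferon, had no count in any library but the THP1 shPRMT9 libraries, with 1 and 6. IFNB1, which encodes IFN-β, had 0 and 1 counts in Molm13 shCtrl and 3 and 2 in shPRMT9, against 1 and 1 and then 10 and 8 in THP1. Such counts show transcripts at the moment of harvest and at this depth, not secreted protein. Of 22 regulators of interferon signalling, 18 were tested in each line, and 7 in Molm13 and 8 in THP1 were called higher, none lower, where 11.4% and 3.83% of all tested genes were called higher and 11.3% and 2.39% lower. IFNGR2, a chain of the IFN-γ receptor, rose in both lines (0.83 in each), as did STAT2 (1.65 and 1.26) and IRF9 (1.91 and 0.67), which belong to the complex that binds the ISRE. IRF1, a transcription factor known to drive GBP promoters, was not called in either line, with log2 fold changes of −0.07 in Molm13 (adjusted p = 0.25) and 0.45 in THP1, where it passed the FDR but not the fold limit.

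Among 12 related GTPases, MX2, an interferon-induced dynamin-like antiviral protein, rose in both lines (2.85 and 2.61), and MX1 rose in THP1 (2.40). In Molm13, MX1 passed the FDR and fold limits (1.84) but not the RPKM minimum, and the remaining dynamin-like and atlastin genes were not called in either line. Of 13 genes of inflammasome signalling and cell-autonomous defence, 4 were called higher in each line, of 11 tested in Molm13 and 12 in THP1, beside 11.4% and 3.83% of all tested genes. CASP4, the caspase assembled on GBP coats, rose in both (0.82 and 0.62), as did IL1B (1.74 and 2.68) and RNF213, a ubiquitin ligase that also coats bacteria (0.76 and 1.94). Of 6 genes of the prenylation pathway that anchors GBP1, GBP2 and GBP5, none was called higher. ICMT and ZMPSTE24, which process the prenylated end, fell by 1.55 and 0.97 in Molm13 and were not called in THP1, and RCE1 and the transferase subunits were not called in either line.

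Of 10 IFN-α response genes, 9 were called higher in Molm13 and 10 in THP1, with median log2 fold changes of 3.28 and 2.80. Of 12 IFN-γ response genes, 9 were tested in Molm13 and 10 in THP1, and 3 and 4 were called higher beside 11.4% and 3.83% of all tested genes, with medians of 0.50 and 0.90. WARS (−0.31) and FCGR1A (−0.44) passed the FDR in the lower direction in Molm13 but not the fold limit. ICAM1 (1.36 and 2.60) and HLA-DRA (0.67 and 0.78) were called in both lines. CD74 (0.80) was called in Molm13 only, and the antigen processing genes PSMB9 (1.18) and TAP1 (1.03) in THP1 only. The medians of the tested GBP genes were 1.86 in Molm13 and 2.44 in THP1, beside 0.000472 and −0.000631 over all tested genes of these lines. The Molm13 median leaves out GBP1 and includes GBP4, which passed the count filter through the group where it was high. All list medians cover only genes that passed this filter and are a description only.

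**Figure D4:**
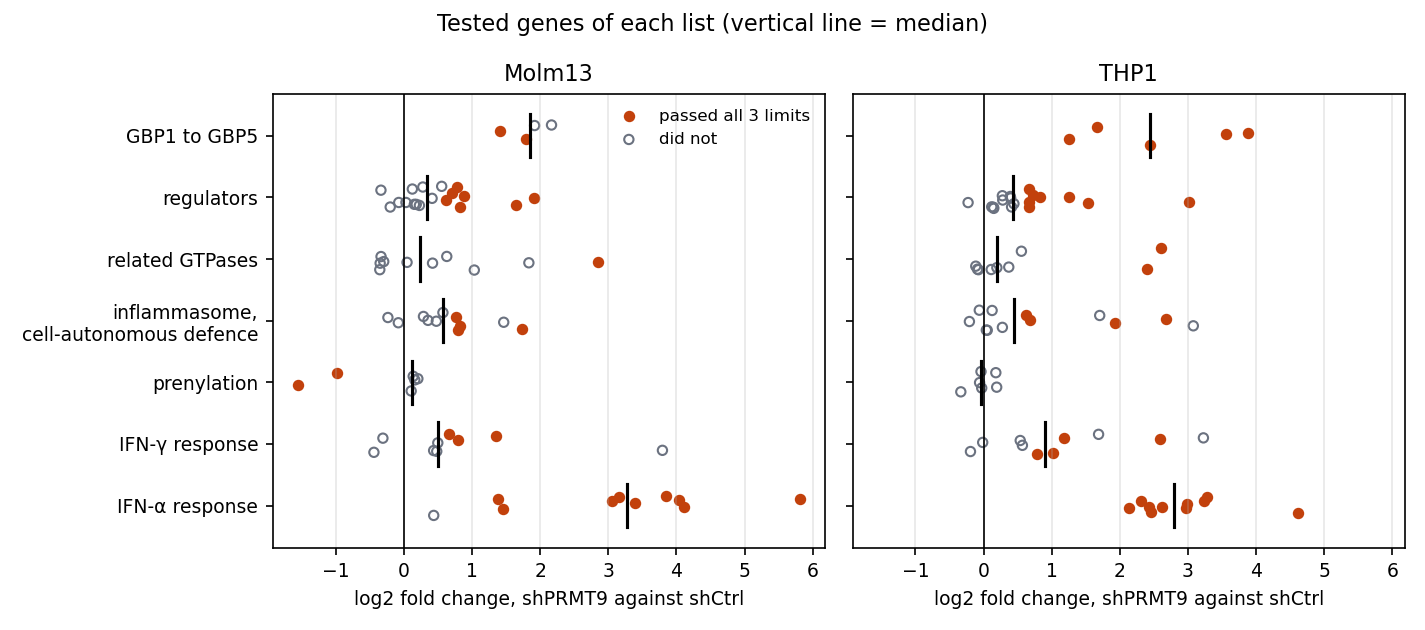
Log2 fold change of every tested gene of each list, in Molm13 (left) and THP1 (right); filled points passed the FDR, fold and RPKM limits, open points did not, and each vertical line is the list's median. The tested GBP genes lie above the regulators and the IFN-γ response genes by median (1.86 and 2.44 against 0.35 and 0.43 for the regulators). The IFN-α response genes have medians of 3.28 and 2.80. Medians describe only genes that passed the count filter, which left out GBP1 in Molm13.

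Genes with the most similar profile over the 8 libraries were picked by Euclidean distance between centred log2 CPM values, as a description without a test. GBP2 lay closest to LRRC25 (0.324) and to TNFSF13B, the B cell activating factor (0.451). GBP3 lay closest to CYSTM1 (0.312) and to the transcript RP1-179N16.6 (0.403). GBP5 lay closest to HMOX1, the haem oxygenase (0.983), and to IL1B (1.11). GBP4 lay closest to IFITM3 (1.28) and to RASA4 (1.47), which was not tested in the Molm13 fit. GBP1 lay closest to LGALS3BP (1.40) and IFITM1 (1.45). These distances of GBP1, GBP4 and GBP5 were wider than those of GBP2 and GBP3.

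Several myeloid markers moved with the same contrast. The summed level of all 8 went from between 914 and 915 CPM in Molm13 shCtrl to between 1441 and 1470 in shPRMT9, and from between 2300 and 2312 to between 3631 and 3782 in THP1. Most of each sum was LYZ, with means of 634 and 998 CPM in the Molm13 groups and 1889 and 3100 CPM in the THP1 groups. CSF1R, the receptor of macrophage colony-stimulating factor, rose in both lines (2.06 and 1.03), as did the integrin ITGAM (1.95 and 1.15) and LYZ (0.66 and 0.71), and CD14 rose in THP1 (2.40). MPO went the other way, with −0.56 in Molm13, under the fold limit, and a called fall of 0.82 in THP1, and FCGR1A stood at −0.44 in Molm13 and −0.01 in THP1. The part of this shift in the GBP levels was not tested.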

How the data were processed

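Polyadenylated RNA of 8 libraries was sequenced, and the authors deposited 1 table per line that holds unnormalized counts of reads on each gene. The submitters' processing notes name TopHat2 2.0.8, HTSeq 0.11.2, edgeR 3.30.3 and build hg38, whereas the annotation and the strand setting are not given in the sources used here. Counting without strand would add antisense reads. Coordinates are those of the Molm13 table. The GENCODE release 29 annotation holds 57388 of its identifiers and gives 96.3% of them identical ends.

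From the counts onward, values were computed with edgeR 4.0.16, DESeq2 1.42.0 and limma 3.58.1 under R 4.3.3. Each line was fitted alone, with TMM scaling, filterByExpr (minimum count 10), the quasi-likelihood test and Benjamini-Hochberg adjustment over all tested genes. The limits (FDR below 0.05, fold above 1.5 and over 1 RPKM in a library) follow the study's methods, with the upper fold limit read as above 1.5. The difference between the lines and between their controls came from 1 fit of all 8 libraries, which also scaled the CPM and RPKM values shown. An SE is the size of the log2 fold change over the root of the F value, and 95% intervals are normal intervals from it. The p-values measure only the spread between these libraries, which may be technical, and an exact permutation test of 2 against 2 libraries cannot go below 0.333. Shared numbers were not used to pair the libraries.

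Genes named are GBP1 to GBP5, PRMT9, genes of the lists, genes overlapping a member, and the 2 nearest profiles per member. Some genes of the lists are not reported here. Members and lists were chosen with earlier results of these data known. The scripts were tested on simulated counts. Alternatives were other normalizations, filters, tests and limits, a common fit, a replicate block and leaving out each library, and a second gene length was added after seeing the data.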

Additional observations from a re-analysis of the deposited data

Results flagged for a closer look

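The effect of shPRMT9 on GBP5 differed between the lines, by 1.40 on the log2 scale (THP1 minus Molm13, edgeR's quasi-likelihood interaction test, adjusted p = 1.4e-06), and shPRMT9 libraries lay above shCtrl libraries in both lines. Among the genes of the pathway lists called in 1 line or more, 13 others differed by more than 2-fold between the lines in the same test. The effect was larger in THP1 for USP18 (2.25), a brake on interferon receptors, for ISG20 (1.71), RSAD2 (1.55), ICAM1 (1.25), RNF213 (1.19) and ISG15 (1.06). It was larger in Molm13 for IFIT2 (−1.52), OAS2 (−1.48), IRF9 (−1.22) and IFI44L (−1.20). ICMT (1.23) and ZMPSTE24 (1.17) fell in Molm13, at −1.55 and −0.97, and stood at −0.33 and 0.18 in THP1. IRF2 (1.07) stood at −0.34 in Molm13 and rose by 0.72 in THP1. Of the cell type markers, PAX5 (2.16), CD14 (1.84) and CSF1R (−1.01) met the same limits. Over all genes, 42.2% passed the FDR limit of this test. The share that also met the 2-fold limit and was called in a line was not computed, so the count of 13 has no background. Groups of 2 libraries are too small for a check of single outlying samples.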

How the results depend on the processing

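The number of members called was 5 in THP1, 1 for the difference between the lines and 4 for the control groups under every alternative run. In Molm13 it was 2, except 4 by FDR alone and 3 with the longest coding transcript of the basic set as gene length, which added GBP5. With the replicate number as a block the counts were 2, 5, 1 and 4, and no call changed. The pairing check gave correlations of −0.0870 in Molm13 and −0.0146 in THP1 between the deviations of libraries with the same number. No shared deviation was seen, but such a check cannot exclude that these libraries were prepared together. Leaving out 1 library at a time left 2 members called in Molm13 and 5 in THP1. GBP1 in Molm13 was tested in 4 alternatives, with log2 fold changes from 3.06 to 6.28. Signs turned for the difference of GBP1 between the lines with limma-voom (0.42) and without Molm13 shCtrl replicate 1 (0.78), Molm13 shPRMT9 replicate 2 (0.43) or THP1 shCtrl replicate 2 (0.10). They also turned for that of GBP4 without Molm13 shCtrl replicate 1 (−0.13) and for the control difference of GBP3 without THP1 shCtrl replicate 2 (0.0274), none of which passed the test. With 1 library left out at a time, these differences ranged from −2.63 to 0.78 for GBP1, from −0.13 to 0.92 for GBP4 and from −0.0917 to 0.0274 for GBP3. The causes were not tested. Depth limits GBP1 and GBP4 in Molm13, with 1 and 16 counts in shCtrl and 19 and 61 in shPRMT9, summed over both libraries.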

Other observations

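PAX5, a B cell transcription factor examined here as a marker of another lineage, went in THP1 from 64 and 86 counts under shCtrl to 298 and 276 under shPRMT9, a 4.08-fold rise (edgeR's quasi-likelihood test, adjusted p = 7.4e-13). In Molm13 it had 866 and 829 counts in shCtrl and 741 and 821 in shPRMT9 (log2 fold change −0.12, adjusted p = 0.060). MPO, the granule peroxidase of immature myeloid cells, fell by 0.82 on the log2 scale in THP1, whereas CSF1R, ITGAM and LYZ rose there. In Molm13 its log2 fold change was −0.56, under the 1.5-fold limit.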
